A study of Mus musculus with 6 samples.

Results

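Genes of MAP kinase signalling and of protein dephosphorylation were followed in the epididymal white adipose tissue of mice deprived of food for 24 h. They were chosen by name, as all genes whose symbol starts with Mapk, Map2k, Map3k, Map4k, Dusp, Ptpn, Ptpr or Ppp followed by a digit or letter. These were 34 of the 3162 genes held in the deposited files, and comprised 12 genes of the MAP kinase cascade, 2 Dusp genes, 6 Ptpn and Ptpr genes and 14 Ppp genes. The GRCm38 annotation has 206 genes with such names, and those outside the 34, among them the 5 annotated Map4k genes, were not analysed here. The fasted group was 3 wild-type male C57BL/6J mice aged 16 weeks without food for 24 h, and the fed group was 3 wild-type males of the same strain and age with normal feeding. No transgene or drug is given for either group, and each RNA sample came from 70 mg of fat by bulk RNA sequencing.

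In a MAP kinase cascade, a MAP3K phosphorylates a MAP2K, which phosphorylates a MAP kinase of the ERK, JNK or p38 type, and scaffold proteins hold these kinases together. Dual-specificity phosphatases, encoded by Dusp genes, remove the activating phosphates from MAP kinases, and protein tyrosine phosphatases of the Ptpn (non-receptor) and Ptpr (receptor) classes act on tyrosine residues higher in the pathway. The Ppp genes encode serine/threonine phosphatases such as PP1 and PP2A, in which a small number of catalytic subunits are steered to their substrates by many regulatory subunits. In fat cells these enzymes act downstream of insulin and of adrenergic signals, and PP1 and PP2A reverse phosphorylation by protein kinase A and by insulin-regulated kinases.

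The values were FPKM, which count sequenced fragments relative to transcript length and library size, and summed FPKM over the 3162 genes was 180058 to 188061 in fasted and 190382 to 209201 in fed libraries. Depth per library is unknown. In 93.4% of the 3162 genes the groups did not overlap, so the genes held look selected on these same libraries, by a rule that no source used here states. Of the adipocyte markers listed, 6 of 15 were held, and resistin (Retn) at 2670 to 2895 FPKM in fasted and 3761 to 4786 FPKM in fed tissue showed the labelled fat. All 6 fell, with a summed level of 3297 to 3875 FPKM in fasted and 5977 to 7155 FPKM in fed libraries. All 7 endothelial markers held (of 15) rose, with sums of 499 to 718 and 309 to 351 FPKM in fasted and fed libraries. Of the 9 mural and smooth muscle markers held (of 12), 7 rose and 2 fell, and the sums were 241 to 397 FPKM in fasted and 166 to 254 FPKM in fed libraries. The 5 erythrocyte markers held (of 7) rose, with sums of 3955 to 10136 FPKM in fasted against 1892 to 2800 FPKM in fed libraries. Of 4 progenitor and fibroblast markers held (of 12), 2 rose and 2 fell, with sums of 1239 to 1851 FPKM in fasted and 798 to 1069 FPKM in fed libraries. The 1 macrophage marker held (of 15) fell, at 2.12 to 3.86 FPKM in fasted and 4.55 to 8.38 FPKM in fed libraries, and the 2 lymphocyte markers held (of 13) summed to 13.8 to 15.2 FPKM in fasted and 3.27 to 6.18 FPKM in fed libraries. Of the leukocyte, mesothelial, nerve and skeletal muscle lists no marker was analysed here (0). The epididymal gene Adam7, 1 of 12 epididymis and testis markers listed, was at 2.05 FPKM in fed replicate 2 and at 0 to 0.03 FPKM in the other libraries. Fasted replicate 3 stood apart from the other fasted libraries, with the lowest endothelial (499 FPKM) and mural (241 FPKM) sums and the highest adipocyte sum (3875 FPKM) of the group. The part of these cell types in the results below was not tested unless a value says otherwise, and in bulk tissue fewer cells of a type and less RNA per cell cannot be told apart.

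Of the 34 genes, 32 had a mean of at least 1 FPKM and were tested by limma on log2(FPKM + 1) together with 2999 genes in all. At a Benjamini-Hochberg adjusted p under 0.05, 14 rose, 15 fell and 3 did not pass, so that 29 of 32 were called where 90.5% of all tested genes were. Fasted replicate 3 was the lowest fasted library for 13 of the 14 genes that rose, at a median of 0.753 times the mean of the other fasted libraries, and without it 14 rose and 12 fell. In the fed group, replicate 2 held the top value in 9 of the 15 genes that fell and the bottom value in 4. Its ratio to the mean of the other fed libraries had a median of 1.13 in these genes. Of the 14 genes that rose, it had the bottom fed value in 7 and the top in 2. Leaving it out gave 14 rises and 11 falls, where leaving out any other single library gave 12 or 13 falls. Rises are read against 41.1% of all tested genes and falls against 49.4%. The groups did not overlap in 31 of the 34 genes, against 93.4% of all genes held. Fasted libraries were all higher in 16 of them, against 41.9% of genes held, and all lower in 15, against 51.5%. Both shares lie near the background of a table chosen on these libraries, and the median log2 fold change was -0.34 for the 32 genes and -0.34 for all 2999. Adjusted over all annotated genes, with those not held given the largest possible p, 1 of the 32 passed by limma, where 12.1% of the tested genes did. Over protein-coding genes 8 rises and 6 falls passed, where 35.1% of the tested genes did. Scaling between libraries shifted the median of all tested genes by 0.20 (median-ratio), 0.13 (quantile) and 0.11 (equal summed FPKM) on the log2 scale, so small falls near -0.34 lay close to the middle of the table. The split of 14 rises and 15 falls became 14 and 8 with median-ratio scaling, 14 and 12 with quantile scaling and 14 and 11 with equal summed FPKM.

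**Figure D1:**
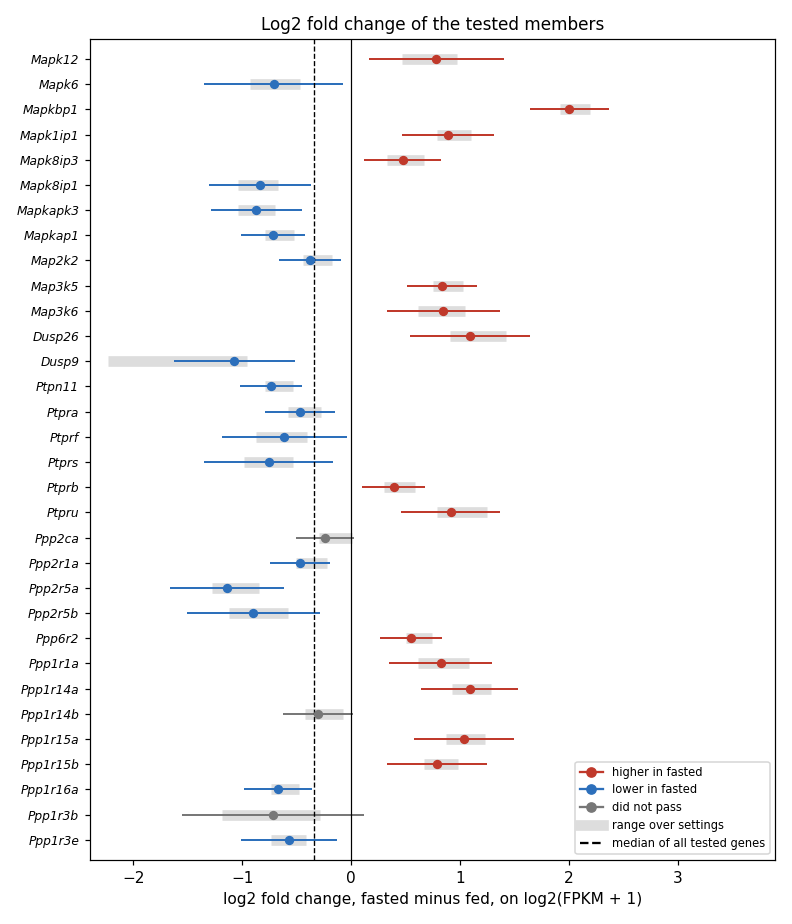
Log2 fold change (fasted minus fed, on log2(FPKM + 1)) of the 32 tested genes, with points for the estimate, thin lines for the 95% confidence interval and grey bars for the range over 13 settings of scaling, filter, pseudocount, variance trend and libraries left out. The dashed line marks the median of all tested genes at -0.34; Mapkbp1 at 2.01 stands farthest to the right and Ppp2r5a at -1.14 farthest to the left.

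Both MAP kinase genes held were atypical or tissue-restricted members of the family, and they moved in opposite directions. Mapk12 encodes p38 gamma, a p38 isoform best known from skeletal muscle. It was at 32.6, 17.5 and 15.8 FPKM in fasted libraries, against 9.58, 12.8 and 13.2 FPKM in fed libraries. Every fasted library lay above every fed one, and fasted replicate 1 was far above the rest. The log2 fold change was 0.78 ± 0.27 (SE; limma adjusted p = 0.0253), with 0.47 without fasted replicate 1 and a lost call without fed replicate 1 (adjusted p = 0.0697, and 0.0107 to 0.469 over all settings). Mapk6 encodes ERK3, an atypical ERK that is regulated largely by its rapid turnover. Its level was 21.5, 41.5 and 31.5 FPKM in fasted libraries, against 70.1, 40.1 and 45.8 FPKM in fed libraries. Here the groups overlapped, since fasted replicate 2 exceeded fed replicate 2. The log2 fold change of -0.71 ± 0.28 (limma adjusted p = 0.0389) kept its call in the main test only narrowly. It missed the threshold under each of the 3 scalings, without fasted replicate 1 (-0.47, adjusted p = 0.124) or 3 and without fed replicate 1 or 3, over a range of adjusted p of 0.0243 to 0.72. Within each library, Mapk12 relative to Mapk6 was 0.422 to 1.52 in fasted and 0.137 to 0.318 in fed tissue, a ratio in which scaling cancels.

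Scaffold and partner genes of the MAP kinases held the largest change of the tested members on the log2(FPKM + 1) scale. Mapkbp1, whose WD-repeat product binds JNK, was at 35.6, 33.2 and 26.2 FPKM in fasted libraries, against 8.07, 6.61 and 6.6 FPKM in fed libraries. The lowest fasted value was far above the highest fed value. Its mean in fasted tissue was 4.46 times that in fed tissue, and the log2 fold change was 2.01 ± 0.16 (limma adjusted p = 0.00034). Among the 2999 tested genes it ranked 15 by p and 40 by size of rise. The estimate ranged only from 1.92 to 2.20 over the 13 settings, and this was the gene that passed over all annotated genes (adjusted p = 0.00629). Mapkbp1 (ENSMUSG00000033902) spans bases 119972699 to 120027408 of chromosome 2 (GRCm38, plus strand). Its exons share 627 bases with the antisense gene Gm13999, and these FPKM values carry no strand that would tell the reads of the pair apart. The RefSeq promoter window of this gene (chr2:119972449-119972748, GRCm38.p6, plus strand, 250 bases before to 50 after the start) is shown because this gene had the largest log2(FPKM + 1) change and the smallest p of the members; by group means and with a pseudocount of 0.1, the change of Dusp9 was larger.
Mapkbp1 promoter: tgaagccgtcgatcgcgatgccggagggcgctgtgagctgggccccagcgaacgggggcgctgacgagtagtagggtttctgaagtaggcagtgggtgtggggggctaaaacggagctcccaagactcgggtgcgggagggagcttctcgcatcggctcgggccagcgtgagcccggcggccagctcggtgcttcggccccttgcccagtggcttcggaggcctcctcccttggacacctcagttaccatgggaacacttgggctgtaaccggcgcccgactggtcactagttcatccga
Of the 5 short motifs searched for, which are spelled out with the other promoters below, none was found in these letters (0).

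The JNK-interacting scaffolds divided. Mapk8ip1 encodes JIP1, which gathers JNK with its upstream kinases, and Mapk8ip3 encodes JIP3, a scaffold that also links cargo to kinesin motors. Mapk8ip1 was at 3.14, 2.87 and 2.99 FPKM in fasted libraries, against 4.4, 8.05 and 6.48 FPKM in fed libraries (log2 fold change -0.84 ± 0.20, limma adjusted p = 0.00826). The fasted values were tightly grouped below a wide fed range. Mapk8ip3 was at 30.0, 24.0 and 20.6 FPKM in fasted libraries, against 17.0, 17.2 and 18.0 FPKM in fed libraries (0.47 ± 0.15, adjusted p = 0.021 by limma). Every fasted library was above the fed ones, yet the call was lost without fasted replicate 1 (0.33, adjusted p = 0.0537, and 0.00515 to 0.388 over all settings). The JIP3 to JIP1 transcript ratio within a library was 9.55, 8.37 and 6.87 in fasted and 3.87, 2.14 and 2.78 in fed tissue. Mapk8ip3 exons overlap those of Mrps34 (1309 bases), Nme3 (577 bases) and Eme2 (1557 bases), so its values may hold reads of these genes. Mapk8ip1 exons share 96 bases with 1700029I15Rik on the opposite strand.

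The other partners were as mixed. Mapk1ip1, named for an interaction with ERK2, was at 81.4, 78.9 and 53.6 FPKM in fasted libraries, against 38.9, 33.1 and 40.3 FPKM in fed libraries. All fasted values were higher, by 0.89 ± 0.18 on the log2 scale (limma adjusted p = 0.00507), and 195 bases of its exons are shared with Ppp2r2d on the opposite strand. Mapkapk3, a kinase activated by p38, was at 3.62, 2.76 and 3.38 FPKM in fasted libraries, against 7.03, 8.18 and 5.3 FPKM in fed libraries. This gene fell by 0.87 on the log2 scale (SE 0.18, limma adjusted p = 0.00546), and its fasted mean was 0.476 times the fed mean. Mapkap1 carries a MAPK name but encodes SIN1, a subunit of mTORC2, the kinase complex that phosphorylates AKT after insulin. Its level was 9.87, 11.3 and 12.4 FPKM in fasted libraries, against 19.5, 19.4 and 18.1 FPKM in fed libraries. The groups were well apart and each was narrow (-0.72 ± 0.13, limma adjusted p = 0.00341).

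At the upper tiers of the cascade, the MAP3K genes held (3 of 19 annotated) were higher in fasted tissue. The MAP2K gene held (1 of 8) was lower. Of all tested genes, 41.1% rose and 49.4% fell, so these few genes do not describe their tiers. Map3k5 (ASK1) and Map3k6 (ASK2) encode related kinases that answer oxidative and other stress and signal to JNK and p38. Map3k5 was at 17.1, 14.7 and 13.9 FPKM in fasted libraries, against 8.21, 7.22 and 8.84 FPKM in fed libraries. Map3k6 was at 38.9, 63.3 and 38.4 FPKM in fasted libraries, against 29.2, 20.2 and 25.9 FPKM in fed libraries. The rises were of nearly the same size, 0.84 ± 0.14 for Map3k5 and 0.85 ± 0.22 for Map3k6 (limma adjusted p = 0.00281 and 0.0108). The ratio of Map3k6 to Map3k5 averaged 3.11 in fasted and 3.10 in fed tissue, and the groups overlapped (exact two-sided permutation p = 0.8, n = 3 per group). Map3k19 was below the minimum mean and was not tested. It was at 0.81, 1.12 and 0.51 FPKM in fasted libraries, against 0.2, 0.3 and 0.43 FPKM in fed libraries.

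Map2k2 encodes MEK2, one of the kinases that activate ERK1 and ERK2. Its level was 29.8, 32.8 and 28.5 FPKM in fasted libraries, against 41.6, 41.7 and 36.1 FPKM in fed libraries. The groups did not overlap, but the log2 fold change of -0.38 ± 0.12 (limma adjusted p = 0.0203) differed from the median of all tested genes by only -0.04. The call was lost under each of the 3 scalings (-0.18 and adjusted p = 0.202 with median-ratio scaling, and 0.0198 to 0.375 over all settings). It was also lost without fasted replicate 3, fed replicate 1 or fed replicate 2.

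**Figure D2:**
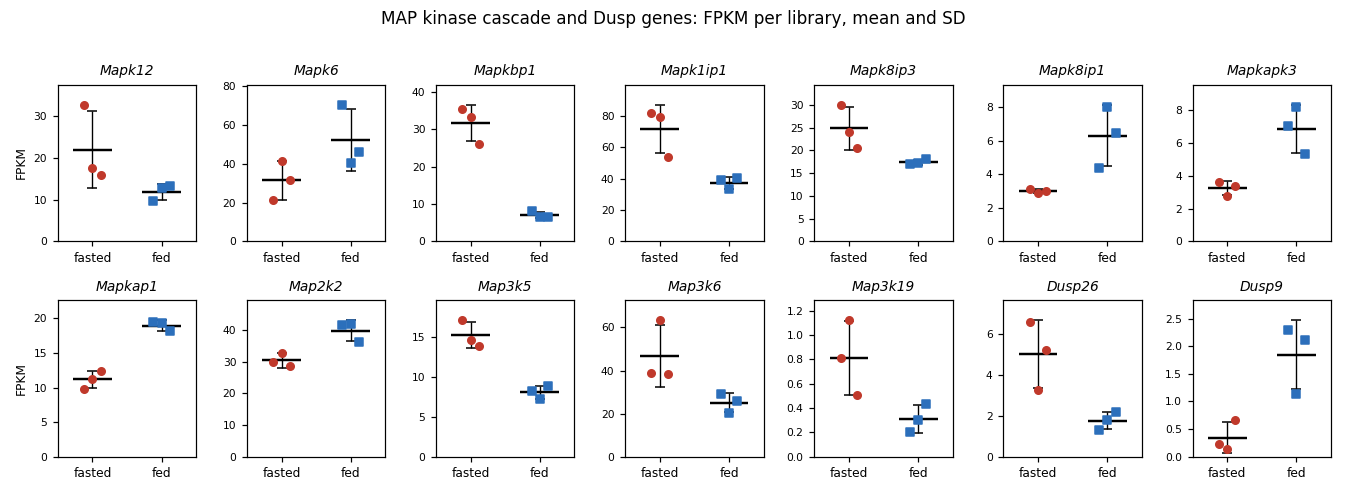
FPKM of the 12 MAP kinase cascade genes and 2 Dusp genes in each library (red circles, fasted; blue squares, fed; bars, mean and SD of 3 libraries; each panel has its own axis from 0). Mapkbp1 in fasted libraries lies at 26.2 to 35.6 FPKM, all above the fed libraries, while Mapk6 is the panel in which the groups overlap.

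The Dusp genes held were 2 of 24 annotated, and they moved in opposite directions from low levels. Dusp9, on the plus strand of chromosome X, encodes a cytoplasmic MAP kinase phosphatase that favours ERK and has been studied in insulin-responsive tissues. It was at 0.24, 0.14 and 0.66 FPKM in fasted libraries, against 2.29, 1.13 and 2.11 FPKM in fed libraries. The highest fasted value was below the lowest fed value, and the fasted mean was 0.188 times the fed mean. With values this low the log2 fold change depended on the pseudocount, and was -1.07 ± 0.24 with 1 FPKM added (limma adjusted p = 0.00664) and -2.24 with 0.1 FPKM added. Dusp26 encodes an atypical member of the family without the MAP kinase-binding domain of the typical ones. It was at 6.55, 3.26 and 5.19 FPKM in fasted libraries, against 1.33, 1.79 and 2.16 FPKM in fed libraries. The mean in fasted tissue was 2.84 times that in fed tissue (1.09 ± 0.24, limma adjusted p = 0.00615). The ratio of Dusp26 to Dusp9 was 27.3, 23.3 and 7.86 in fasted libraries, against 0.581, 1.58 and 1.02 in fed libraries, and Dusp26 was the more abundant of the pair in every fasted library and in fed replicates 2 and 3.

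Among the protein tyrosine phosphatases, Ptpn11 fell most clearly. It encodes SHP2, which is needed for full activation of Ras and ERK by many growth factor receptors. Ptpn11 was at 23.3, 24.3 and 24.6 FPKM in fasted libraries, against 46.5, 37.7 and 38.5 FPKM in fed libraries. The fasted libraries were nearly equal to each other and all below the fed ones, with a fasted mean of 0.588 times the fed mean. The log2 fold change was -0.74 ± 0.12 (limma adjusted p = 0.00292), and the call was kept in every setting except when p was adjusted across the whole annotation (0.054, with a lowest adjusted p of 0.00284).

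Receptor phosphatases went both ways, with 3 falls and 2 rises among the 5 held of 23 annotated. Ptpra, an activator of Src family kinases, was at 19.4, 23.0 and 26.6 FPKM in fasted libraries, against 32.1, 31.2 and 32.9 FPKM in fed libraries (-0.47 ± 0.14, limma adjusted p = 0.0151). Its groups did not overlap, but the call was lost under each of the 3 scalings (adjusted p = 0.0102 to 0.279 over all settings). Exons of Ptpra share 327 bases with the antisense gene 4930473A02Rik. Ptprf (LAR) and Ptprs are close relatives of the type IIa class, and LAR has been studied as a phosphatase of the insulin receptor. Ptprf was at 4.7, 2.64 and 1.97 FPKM in fasted libraries, against 4.53, 5.89 and 4.79 FPKM in fed libraries. Fasted replicate 1 exceeded fed replicate 1, so these groups overlapped. Its log2 fold change of -0.61 ± 0.25 (limma adjusted p = 0.0443) missed the threshold with median-ratio scaling or equal summed FPKM and without each library other than fasted replicate 1. Without fasted replicate 3 it was -0.41, and adjusted p ranged from 0.0128 to 0.82 over all settings.

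Ptprs was at 4.89, 3.07 and 4.71 FPKM in fasted libraries, against 5.34, 10.9 and 7.76 FPKM in fed libraries. The groups did not overlap, although fasted replicate 1 and fed replicate 1 lay close together. The log2 fold change was -0.76 ± 0.26 (limma adjusted p = 0.0242), and the call was lost with median-ratio scaling and without fasted replicate 2, fed replicate 2 or fed replicate 3 (adjusted p = 0.0109 to 0.448 over all settings). Ptpru belongs to the class of receptor phosphatases with adhesion-type outer domains. It was at 4.1, 4.63 and 2.7 FPKM in fasted libraries, against 1.58, 1.28 and 1.69 FPKM in fed libraries. All fasted values were above the fed ones, the fasted mean was 2.51 times the fed mean, and the rise was 0.92 ± 0.20 on the log2 scale (limma adjusted p = 0.00595).

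Ptprb encodes VE-PTP, the receptor phosphatase of endothelial cells that restrains the angiopoietin receptor Tie2, the product of Tek. It was at 28.4, 24.2 and 22.7 FPKM in fasted libraries, against 18.6, 19.2 and 18.6 FPKM in fed libraries. Every fasted library was higher (0.39 ± 0.13, limma adjusted p = 0.02), and the call was lost without fasted replicate 1 or fed replicate 3 (adjusted p = 0.0545 and 0.0529, and 0.00355 to 0.369 over all settings). The estimate was 0.59 with median-ratio scaling. All 7 endothelial markers held rose as well, by a median of 0.88 on the log2 scale, and their summed level was 1.88 times as high in fasted as in fed tissue. Their part in the rise of Ptprb was not tested beyond the ratio. Relative to that sum, Ptprb was 0.0395, 0.0379 and 0.0454 in fasted libraries, against 0.0562, 0.0547 and 0.0603 in fed libraries. The sum holds only the 7 markers in the files, which all rose, so the ratio depends on which markers were held. An exact two-sided permutation test gave p = 0.1, the smallest that 3 against 3 libraries can give, and relative to Tek alone the groups overlapped.

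Of the 4 PP2A genes held, 3 fell in fasted tissue and 1 did not pass, where 49.4% of all tested genes fell. They were 3 of 15 annotated Ppp2r genes and 1 of 12 annotated catalytic subunit genes with Ppp names. PP2A is built from a catalytic subunit, a scaffold and a regulatory B subunit that sets the substrate, and it is a main phosphatase of AKT and of ERK pathway proteins. Ppp2r5a, a B56 regulatory subunit gene, was at 140, 90.7 and 122 FPKM in fasted libraries, against 219, 344 and 222 FPKM in fed libraries. This was the deepest fall of the 32 tested genes on the log2(FPKM + 1) scale, at -1.14 ± 0.23 (limma adjusted p = 0.00476), and ranked 263 among the 2999. The fasted mean was 0.449 times the fed mean. By this measure Dusp9 (0.188) fell further, and Ppp1r3b, which did not pass, was also lower (0.342). Ppp2r5b, the beta relative of the same family, was at 10.52, 12.3 and 11.1 FPKM in fasted libraries, against 15.8, 34.5 and 19.1 FPKM in fed libraries. Fed replicate 2 stood far above the others, and the log2 fold change was -0.90 ± 0.26 (limma adjusted p = 0.0149) with all libraries and -0.58 without that library.

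Ppp2r1a, the main scaffold subunit gene, was at 78.5, 87.8 and 90.3 FPKM in fasted libraries, against 112, 128 and 116 FPKM in fed libraries (-0.47 ± 0.12, limma adjusted p = 0.0093). The groups were apart, but the change was -0.26 after median-ratio scaling and -0.22 after quantile scaling, and neither passed (adjusted p = 0.0717 and 0.084, and 0.00888 to 0.172 over all settings). Ppp2ca, the alpha catalytic subunit gene, was at 125, 134 and 127 FPKM in fasted libraries, against 151, 167 and 141 FPKM in fed libraries. Its groups did not overlap, and the log2 fold change of -0.24 had a 95% confidence interval of -0.51 to 0.03 (limma adjusted p = 0.0746). It was 0.0075 with quantile scaling, so no direction is given for it. Exons of Ppp2ca share 2985 bases with the noncoding gene 9430098F02Rik on the opposite strand. Within each library, Ppp2r5a was 1.12, 0.674 and 0.958 times the level of Ppp2ca in fasted tissue, against 1.45, 2.06 and 1.58 times in fed tissue. The regulatory subunit transcript thus lay above the catalytic one in every fed library and near or below it in fasted libraries.

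PP1 genes were represented by 9 regulatory or inhibitory subunits of 48 annotated with Ppp1r names. Of the 8 tested, 4 rose, 2 fell and 2 did not pass. Ppp1r15a (GADD34) and Ppp1r15b (CReP) direct PP1 to dephosphorylate the translation factor eIF2 alpha, the first induced by stress and the other constitutive. Ppp1r15a was at 22.9, 24.0 and 17.1 FPKM in fasted libraries, against 10.4, 7.54 and 11.9 FPKM in fed libraries, with a rise of 1.04 ± 0.20 (limma adjusted p = 0.00414). Ppp1r15b was at 31.6, 29.5 and 20.4 FPKM in fasted libraries, against 18.1, 13.0 and 14.4 FPKM in fed libraries, with a rise of 0.79 ± 0.20 (limma adjusted p = 0.00899). Both genes were higher in every fasted library than in any fed one. Their ratio was 0.724 to 0.84 in fasted and 0.575 to 0.826 in fed libraries, which overlapped. Exons of Ppp1r15b share 640 bases with Gm26616 on the opposite strand.

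Ppp1r1a encodes inhibitor-1, a PP1 inhibitor that becomes active when protein kinase A phosphorylates it. It was at 114, 167 and 104 FPKM in fasted libraries, against 68.6, 83.6 and 61.3 FPKM in fed libraries. The groups did not overlap, and the rise was 0.82 ± 0.20 (limma adjusted p = 0.0089). Ppp1r14a encodes CPI-17, the PP1 inhibitor of smooth muscle that holds myosin light chain phosphorylated. Its level was 31.3, 25.8 and 21.5 FPKM in fasted libraries, against 13.5, 12.8 and 9.15 FPKM in fed libraries (1.09 ± 0.19, limma adjusted p = 0.00327). Of the 9 mural and smooth muscle markers held, 7 rose as well, while Mylk (-1.12 ± 0.16) and Cspg4 (-0.94 ± 0.35) fell. The summed level of the 9 was 1.62 times as high in fasted tissue, but the sums overlapped between the groups. Relative to that sum, Ppp1r14a was 0.0787, 0.0763 and 0.0894 in fasted libraries and 0.0531, 0.0773 and 0.0501 in fed libraries, and the groups overlapped. Relative to the smooth muscle myosin gene Myh11 it was 0.93 to 1.42 in fasted and 0.771 to 2.37 in fed libraries.

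Ppp1r14b, a related PP1 inhibitor gene of wider expression, was at 97.2, 103 and 91.7 FPKM in fasted libraries, against 125, 136 and 102 FPKM in fed libraries. The groups overlapped by less than 1 FPKM and the log2 fold change of -0.31 had a 95% confidence interval of -0.63 to 0.01 (limma adjusted p = 0.0624). Without fed replicate 3 it was -0.42 and passed (adjusted p = 0.0313, with values up to 1 over all settings). Ppp1r14a relative to Ppp1r14b was 0.322, 0.252 and 0.235 in fasted libraries, against 0.108, 0.0942 and 0.0897 in fed libraries. Ppp1r16a encodes MYPT3, a membrane-anchored PP1 subunit. It was at 10.96, 9.69 and 9.88 FPKM in fasted libraries, against 16.1, 19.2 and 15.3 FPKM in fed libraries (-0.67 ± 0.13, limma adjusted p = 0.00495), with no overlap.

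Glycogen-targeting subunits of PP1 bring the phosphatase to glycogen synthase and phosphorylase. Those held, Ppp1r3b, Ppp1r3e and Ppp1r3g, were at low levels, and other genes of this kind were not analysed here. Ppp1r3e was at 2.19, 2.56 and 2.95 FPKM in fasted libraries, against 5.22, 4.62 and 3.2 FPKM in fed libraries (-0.57 ± 0.19, limma adjusted p = 0.0232). Its call was lost with median-ratio scaling and without fasted replicate 1 or 2 or fed replicate 1 or 2 (adjusted p = 0.0108 to 0.428 over all settings). Ppp1r3b was at 0.94, 0.46 and 0.77 FPKM in fasted libraries, against 0.95, 4.17 and 1.22 FPKM in fed libraries. It did not pass (-0.72, 95% confidence interval -1.56 to 0.12, limma adjusted p = 0.0856), and fed replicate 2 set most of the difference, which was -0.28 without that library. It passed with quantile scaling (-0.87, adjusted p = 0.0486) and without fed replicate 1 (-0.99, adjusted p = 0.0364), with values up to 1 over all settings. Ppp1r3g was not tested, and was at 0.21, 0.33 and 0.1 FPKM in fasted libraries and listed at 0, 0.03 and 0 FPKM in fed libraries.

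Ppp6r2, the remaining gene, encodes a regulatory subunit of PP6. It was at 14.0, 13.5 and 11.9 FPKM in fasted libraries, against 8.64, 8.37 and 8.81 FPKM in fed libraries. The fed values spanned less than 1 FPKM and all lay below the fasted ones, with a rise of 0.55 ± 0.12 (limma adjusted p = 0.00653). Exons of Ppp6r2 share 221 bases with the noncoding gene Gm26798 on the opposite strand.

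**Figure D3:**
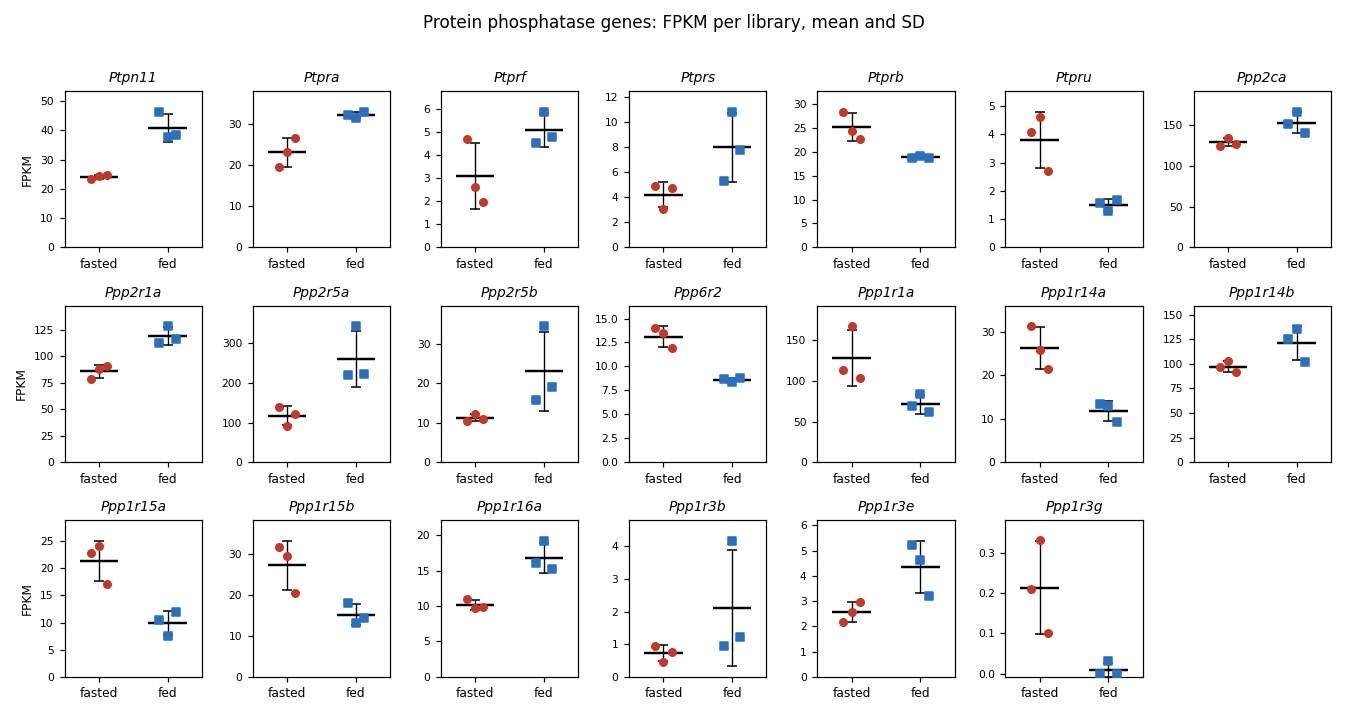
FPKM of the 6 Ptpn and Ptpr genes and 14 Ppp genes in each library (red circles, fasted; blue squares, fed; bars, mean and SD of 3 libraries; each panel has its own axis). Ptpn11 and the PP2A regulatory gene Ppp2r5a lie lower in all fasted libraries, Ppp1r15a, Ppp1r15b and Ppp1r14a lie higher, and single fed libraries stand out for Ppp1r3b and Ppp2r5b.

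By fed mean, Ppp2r5a (262 ± 71.0 FPKM, SD, n = 3), Ppp2ca (153 ± 13.0 FPKM), Ppp1r14b (121 ± 17.3 FPKM) and Ppp2r1a (119 ± 8.46 FPKM) were the most abundant transcripts. By fasted mean the order was Ppp2ca (129 ± 4.94 FPKM), Ppp1r1a (128 ± 34.2 FPKM), Ppp2r5a (117 ± 24.9 FPKM) and Ppp1r14b (97.2 ± 5.46 FPKM). Neighbours in the fasted order differed by less than the larger SD of the pair. In the fed order this held only for Ppp1r14b and Ppp2r1a. Summed FPKM of the 3 Ppp2r genes was 191 to 229 in fasted and 347 to 506 in fed libraries, that of the 6 MAPK partners was 119 to 164 and 92.5 to 94.9, and that of the 3 MAP3K genes was 52.8 to 79.1 and 27.8 to 37.6, each in fasted and then fed libraries. These sums did not overlap between the groups, although 3 of the 6 partner genes fell. The sums of the 2 MAP kinase genes (47.3 to 59.0 and 52.9 to 79.7), the 9 Ppp1r genes (268 to 362 and 218 to 281) and the 2 Dusp genes (3.40 to 6.79 and 2.92 to 4.27), in the same order, did overlap.

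Ratios within a library do not change when that library is rescaled, and 15 were computed after the values had been seen, most between members and the others of Ptprb and Ppp1r14a to cell type markers. The groups did not overlap in 9 of them, each with an exact two-sided permutation p = 0.1 (adjusted p = 0.167 over the 15), the smallest this design can give. For Dusp26 to Dusp9 and Mapk8ip3 to Mapk8ip1, the first gene was higher and the second lower in every fasted library than in any fed one. The lack of overlap in these ratios was thus fixed in advance and is no further evidence. The widest difference in ratio was that of Dusp26 to Dusp9, at a mean of 19.5 in fasted and 1.06 in fed libraries. Its denominator, Dusp9, was at only 0.14 to 0.66 FPKM in fasted libraries, so the size of this ratio rests on very low values. Ptpru relative to Ptprf was 0.872, 1.754 and 1.37 in fasted libraries, against 0.349, 0.217 and 0.353 in fed libraries. In Ptprs relative to Ptprf the groups overlapped, with means of 1.53 in fasted and 1.55 in fed libraries.

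**Figure D4:**
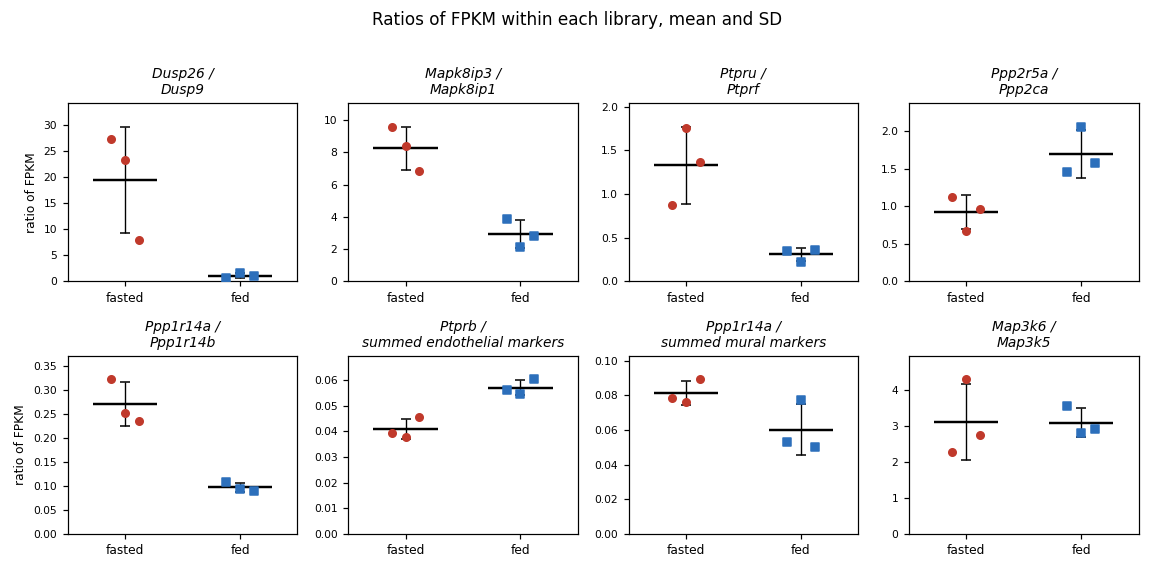
Ratio of FPKM of the first to the second gene (or marker sum) of each panel title within each library (red circles, fasted; blue squares, fed; bars, mean and SD of 3 libraries; axes from 0). Dusp26 to Dusp9 and Mapk8ip3 to Mapk8ip1 lie higher in all fasted libraries, Ppp2r5a to Ppp2ca and Ptprb to endothelial markers (the 7 held) lie lower, and Map3k6 to Map3k5 overlaps.

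RefSeq promoter windows (GRCm38.p6, 250 bases before to 50 after a start) were found for 23 of the 34 genes, in 27 windows. Their median GC content was 65.3%, against 60.7% in the 3166 windows of genes held and 52.7% in all 32851 windows. It was 65.7% for members that rose and 64.0% for those that fell. Searched on both strands, with no overlapping matches (0), were the cyclic AMP response element TGACGTCA, the C/EBP-ATF element TTGCATCA, the E-box CACGTG, the FOXO site TGTTTAC and the CCAAT box CCAAT. The cyclic AMP response element, bound by CREB and ATF factors, was in 5 of the 27 windows, those of 5 of the 23 genes. It was in 2.56% of windows of genes held and in 1.79% of all windows. By gene, it was present for 77 of the 2450 genes held that had a window. The genes with it went different ways: Ppp1r15a and Ptpru rose, Ptpn11 and Ptprs fell and Ppp2ca did not pass. The matches with 20 bases on each side, read on the strand of the gene with the element in capitals, are shown to compare their surroundings.
Ppp1r15a: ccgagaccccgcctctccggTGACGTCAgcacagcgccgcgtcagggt
Ptpru: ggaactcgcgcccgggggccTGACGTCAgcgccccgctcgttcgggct
Ptpn11: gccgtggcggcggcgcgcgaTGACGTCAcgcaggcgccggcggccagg
Ptprs: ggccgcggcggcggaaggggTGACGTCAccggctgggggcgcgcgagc
Ppp2ca: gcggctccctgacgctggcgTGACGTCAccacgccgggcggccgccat
They lie at chr7:45526253-45526300 (minus strand) for Ppp1r15a, chr4:131838292-131838339 (minus) for Ptpru, chr5:121191437-121191484 (minus) for Ptpn11, chr17:56476448-56476495 (minus) for Ptprs and chr11:52098778-52098825 (plus) for Ppp2ca. The element began 12, 41, 67 and 26 bases before the start in Ppp1r15a, Ptpru, Ptpn11 and Ppp2ca, and just after it in Ptprs.

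The window of Ppp2r5a, the member with the deepest fall on the log2(FPKM + 1) scale, lies at chr1:191396992-191397291 (minus strand, GRCm38.p6). The annotated gene begins farther upstream, at base 191403272, so this RefSeq start lies inside it. Which start was used in this tissue was not tested. The window is shown with its CCAAT box match, here on the opposite strand, in capitals.
Ppp2r5a promoter: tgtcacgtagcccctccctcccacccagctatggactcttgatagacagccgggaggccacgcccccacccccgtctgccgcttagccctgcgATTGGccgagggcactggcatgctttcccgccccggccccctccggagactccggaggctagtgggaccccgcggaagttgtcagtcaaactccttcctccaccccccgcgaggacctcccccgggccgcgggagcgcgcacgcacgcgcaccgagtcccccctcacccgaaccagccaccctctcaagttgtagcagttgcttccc
CCAAT box matches were in 5 of the 27 windows (5 of the 23 genes), against 38.6% of windows of genes held. E-box matches were in 3 of the 27 windows (Mapk12, Mapkapk3 and Ptprs), against 9.89% of windows of genes held. FOXO site matches were in 3 windows of 2 genes (Mapkap1 and Ptpra), against 3.00%. The 2 windows of Mapkap1 overlap and hold the same site, so it is counted in both. By gene, the FOXO site was present for 2 of the 23 members and 89 of the 2450 genes held that had a window. The C/EBP-ATF element was in none (0), against 0.79%. These matches describe letters and are no evidence of binding.

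Other genes of the same pathways were taken from lists and counted, with 90.5% of all tested genes called as background. Of 8 receptors and adaptors held (of 33 listed), 5 rose, 2 fell and 1 missed the threshold. Smallest p among the rises had those of the insulin receptor gene Insr (0.69 ± 0.14), the fibroblast growth factor receptor gene Fgfr3 (1.52 ± 0.31) and Irs2 (0.72 ± 0.15), and the falls were those of Ntrk2 (-1.14 ± 0.20) and the interleukin-1 receptor gene Il1r1 (-0.62 ± 0.25). Between receptors and MAP2Ks, 3 of 36 listed genes were held, of which Braf, a MEK-activating kinase gene, rose (0.40 ± 0.14) and the GTPase genes Hras (-0.47 ± 0.14) and Rras (-0.47 ± 0.16) fell. The list of feedback inhibitors held no Sprouty or Spred gene. Of its 4 other members, the receptor regulators Lrig1 (-0.32 ± 0.12) and Lrig3 (-0.61 ± 0.19) and the ubiquitin ligase gene Peli1 (-0.59 ± 0.24) fell and 1 did not pass. The falls of Hras, Rras and Lrig1 lay within the largest scaling shift (0.20) of the median of all tested genes at -0.34.

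Of the kinases that MAP kinases activate, 3 of 8 listed were held and these fell, namely Rps6ka3 (RSK2; -1.16 ± 0.15, limma adjusted p = 0.00136), Mknk2 (-0.44 ± 0.13) and Rps6ka4 (MSK2; -0.40 ± 0.12). The falls of Mknk2 and Rps6ka4 lay near the median of all tested genes at -0.34, by less than the largest scaling shift of 0.20. Rps6ka3 was at 12.5, 11.5 and 14.6 FPKM in fasted libraries, against 33.6, 31.3 and 25.4 FPKM in fed libraries, with no overlap. Immediate early and MAP kinase-responsive genes went both ways, with 9 rises, 4 falls and 3 that did not pass among the 16 tested (18 held of 46 listed). Fosb and Egr2 were below the minimum mean and were not tested, and both were lower in every fasted library than in any fed one. The rises with the smallest p were Gadd45b (1.91 ± 0.20) and Gadd45g (2.02 ± 0.44), whose products bind and activate a p38-directed MAP3K, and Ier2 (0.70 ± 0.14). Those of the falls were Atf3 (-0.80 ± 0.23), Elk1 (-0.48 ± 0.14) and Fos (-0.63 ± 0.18). That of Elk1 also lay within the largest scaling shift of the median of all tested genes. Fos was at 3.34, 2.88 and 2.35 FPKM in fasted libraries, against 4.86, 4.02 and 6.18 FPKM in fed libraries.

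Among phosphatases outside the name rule, 14 of 60 listed were held, and 9 rose, 4 fell and 1 did not pass. The metal-dependent phosphatase genes Ppm1b (0.96 ± 0.16) and Ppm1k (1.09 ± 0.21) and the cofilin phosphatase gene Ssh2 (1.06 ± 0.22) rose, and the PP2A activator gene Ptpa (-0.45 ± 0.13) and Rngtt (-0.37 ± 0.13) fell. Of 5 held partners of calcineurin and PP2A (31 listed), 4 fell and 1 rose. Calm3 (-0.92 ± 0.11), which encodes calmodulin, and Ensa (-0.36 ± 0.11) fell, and Anp32a, encoding a PP2A inhibitor, rose (0.98 ± 0.19). Of 7 held genes of glycogen metabolism acted on by PP1 (18 listed), 5 fell, 1 rose and 1 did not pass. The glycogen phosphorylase gene Pygb (-1.91 ± 0.18) and the phosphorylase kinase subunit genes Phkb (-0.51 ± 0.15) and Phkg1 (-1.03 ± 0.31) had the smallest p among the falls, and Epm2aip1 rose (0.60 ± 0.13). The falls of Ptpa, Rngtt, Ensa and Phkb lay within the largest scaling shift (0.20) of the median of all tested genes at -0.34.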

How the data were processed

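RNA of epididymal white fat was sequenced in 3 fasted and 3 fed mice, grouped by the treatment label; replicate numbers follow accession order and do not pair the mice. Per the file headers, the deposited values are FPKM for each library. Per the submitters' processing notes, the authors used RSEM with the mouse builds mm10 and GRCm38.p6; neither the version of RSEM nor the annotation it used is stated there. Depth is unknown, the values are rounded to 2 decimals at most (smallest value above 0, 0.01 FPKM) and carry no strand. Of 3162 gene identifiers, 3158 matched GENCODE M21 (GRCm38), which gave symbols and coordinates.

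Log2(FPKM + 1) was compared across all 2999 genes that averaged 1 FPKM or more, by limma 3.58.1 in R 4.3.3 (lmFit, eBayes with trend), with two-sided p-values adjusted by Benjamini-Hochberg over those genes and a threshold of 0.05. Fold changes on this scale understate the change of low genes, and p-values on genes chosen from the same libraries do not measure a genome-wide error rate. The fit was tested on simulated data. Within-library ratios used exact permutation tests (scipy). Alternatives were 3 scalings, a pseudocount of 0.1, no filter, no variance trend, adjustment over the 21951 protein-coding or 55450 annotated genes, and each library left out in turn.

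The members and lists were chosen with earlier results of these data known. Every member is counted. By rule, values in each library were given for up to 3 rises and 3 falls per class, all Dusp and MAP kinase genes and all members that did not pass or overlapped; the other members were added, and named list genes had the smallest p (up to 3 per direction). Some list genes that this rule would name are not reported here. The motifs, ratios, the per-library values of Rps6ka3 and Fos, and the naming of Mylk, Cspg4, Fosb and Egr2 were chosen after values were seen.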

Additional observations from a re-analysis of the deposited data

How the results depend on the processing

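Across 14 settings other than the one reported, 19 of the 32 tested members (11 higher, 8 lower) kept their call in all settings except the stricter adjustments, and the direction of 1 member reversed: Ppp2ca was at 0.0075 with quantile scaling (limma adjusted p = 0.946). With median-ratio scaling 787 genes of all tested fell, as did 8 members in all, among them 3 of the cascade, 1 Ptpn or Ptpr gene and 3 Ppp genes, and the members' median log2 fold change was -0.14. With quantile scaling 3 cascade members fell and the median was -0.15. With equal summed FPKM 3 cascade members and 2 Ptpn or Ptpr genes fell and the median was -0.23. Quantile scaling moved members at low levels the other way, with Dusp9 at -1.21 and Ppp1r3e at -0.70.

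Adjustment over protein-coding genes left 557 rises and 495 falls, with 8 and 6 among members: 3 and 2 in the cascade, 1 and 1 for Ptpn and Ptpr, and 3 and 2 for Ppp. Over all annotated genes, 172 rises and 192 falls were left, with 1 rise (in the cascade) and 0 falls among members, and 0 of either kind for Dusp, Ptpn and Ptpr, and Ppp. Leaving out single libraries gave 3 to 5 falls in the cascade, 1 to 2 rises and 2 to 4 falls for Ptpn and Ptpr, and a median of -0.43 (without fed replicate 3) to -0.25 (without fed replicate 2). The cause was not tested. No paired analysis was possible because the labels give no replicate number that links a fasted mouse to a fed one. With 3 mice per group and unknown depth, no counting interval could be given.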
